A study of Mus musculus with 22 samples.

Results

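Neurotrophins are secreted growth factors that neurons use to regulate survival, branching and the strength of synapses. They are made as precursors and cleaved to mature ligands, which bind the Trk receptor tyrosine kinases, whereas the precursors bind the p75 neurotrophin receptor together with the sorting receptor sortilin. In the hippocampus, Bdnf is released from glutamatergic neurons and acts mainly through the TrkB receptor, and neurotrophin-3 is a ligand of the TrkC receptor that is abundant in granule cells of the dentate gyrus, the region next to CA1. Levels of 7 genes of this system were taken from the 23361 genes of an expression matrix by name: the ligands Bdnf (brain-derived neurotrophic factor) and Ntf3 (neurotrophin-3), the receptors Ntrk2 (TrkB), Ntrk3 (TrkC) and Ngfr (the p75 receptor), the sorting receptor Sort1 (sortilin), and Vgf, which encodes a secreted neuropeptide precursor induced by neurotrophins.

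The matrix was made from CA1 tissue microdissected from the hippocampus of 22 wild-type female mice of a Swiss Webster x DBA/C57BL6 F1 background, with 1 mRNA library per mouse. AL mice fed ad libitum and CR mice were maintained on a calorie-restricted diet whose reduction was in carbohydrates. There were 5 AL and 5 CR mice at 5 months of age and 6 AL and 6 CR mice at 15 months. Values are FPKM, the number of fragments scaled to the length of the exons and to the mapped fragments of the library, and all 7 genes passed the minimum mean of 0.1 FPKM that left 16978 genes for testing. CA1 was collected as tissue, so a lower level from fewer cells of a type and one from less RNA per cell cannot be told apart.

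The median FPKM of a library lay between 2.51 and 3.10, with 18281 to 19175 genes above 0. The read depth behind single values is unknown, because whole reads could not be recovered from the FPKM. The libraries differed in markers of neighbouring regions. Markers of CA1 pyramidal neurons (Wfs1, Fibcd1, Spink8, Pou3f1 and Mpped1) were above 0 in every library, and their summed level ranged from 210 to 467 FPKM in AL mice at 5 months, 274 to 409 in CR mice at 5 months, 172 to 265 in AL mice at 15 months and 83.8 to 408 in CR mice at 15 months. Markers of dentate granule cells (Prox1, Dsp, C1ql2, Tdo2, Lct and Trpc6) were also above 0 in every library, with summed levels from 23.4 to 66.4, 16.1 to 44.7, 13.0 to 44.8 and 12.8 to 133 FPKM in the same order of groups.

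The genes lie on different chromosomes of the mouse genome (GRCm38, the same assembly as mm10, with GENCODE release M21 annotation). Bdnf spans chr2:109674700-109727007 on the plus strand with 11 annotated transcripts. Ntf3 lies at chr6:126101412-126166910 on the minus strand, Ntrk2 at chr13:58806569-59133970 on the plus strand, Ntrk3 at chr7:78175959-78738012 on the minus strand and Ngfr at chr11:95568818-95587735 on the minus strand. Sort1 lies at chr3:108284082-108361511 and Vgf at chr5:137026392-137033351, both on the plus strand. Each value sums all transcripts of its gene, so the full-length and kinase-lacking forms of the Trk receptors, and the Bdnf transcripts from separate promoters, were measured together. Libraries were made with a kit that does not mark strand, and an annotated antisense gene shares 896 exonic bases with Bdnf and another shares 338 with Sort1, so reads from these partners could not be told apart from those of the 2 genes.

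Bdnf transcription from its many promoters responds to neuronal activity through elements that include cAMP response element (CRE) sites. RefSeq promoter sequences (GRCm38.p6) were matched for 4 of the 7 genes, with 7 start sites for Bdnf, 2 for Ntf3 and 1 each for Ntrk2 and Ngfr. Of the 7 Bdnf windows of 250 bases before a start, 1 held the CRE core CGTCA (searched on both strands, as CGTCA or TGACG), at position -35 from the start. The CRE core is the shorter part of a full CRE. The windows of Ntf3, Ntrk2 and Ngfr did not hold these letters. Among all 32851 promoters of this length, 17.8% held the CRE core and 1.55% held the full TGACGTCA site, which contains it. The Bdnf window, at chr2:109692186-109692435 on the plus strand, is shown with the CRE core in capitals, beside the first Ntf3 window at chr6:126166745-126166994 on the minus strand, because the FPKM of each ligand pools the starts that such windows precede. By the GENCODE spans above, the Bdnf window lies inside its gene, before an internal start. The Ntf3 window overlaps its gene, since its RefSeq start lies inside the GENCODE span.
Bdnf: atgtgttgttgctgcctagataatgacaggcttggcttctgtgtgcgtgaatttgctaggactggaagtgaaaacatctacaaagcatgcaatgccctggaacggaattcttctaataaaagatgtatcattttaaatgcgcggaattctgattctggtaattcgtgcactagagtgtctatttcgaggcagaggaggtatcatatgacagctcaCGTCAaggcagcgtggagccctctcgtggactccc
Ntf3: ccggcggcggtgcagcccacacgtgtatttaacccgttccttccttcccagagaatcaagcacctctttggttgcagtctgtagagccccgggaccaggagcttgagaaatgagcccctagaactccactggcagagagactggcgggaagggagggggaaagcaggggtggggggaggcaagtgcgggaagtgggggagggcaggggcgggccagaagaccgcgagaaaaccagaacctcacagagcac

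The 7 genes covered a wide range of levels. Mean FPKM over the 22 libraries was 114 for Ntrk2, 108 for Sort1, 87.6 for Vgf, 28.2 for Ntrk3, 11.9 for Bdnf, 4.75 for Ntf3 and 0.910 for Ngfr. Per length, transcripts of the Trk receptors Ntrk2 and Ntrk3 exceeded those of the ligands, and 95.1% of the tested genes had a lower mean than Ntrk2 while 17.4% had a lower mean than Ngfr. Ntrk2 exceeded Sort1 in 15 of 22 libraries and Sort1 exceeded Vgf in 18, so the 3 highest genes overlapped. The order of Vgf above Ntrk3, Ntrk3 above Bdnf and Ntf3 above Ngfr held in 22 of 22 libraries. Bdnf exceeded Ntf3 in 21 of 22, and the exception was a CR mouse at 15 months with 13.5 FPKM of Bdnf and 14.2 FPKM of Ntf3.

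**Figure D1:**
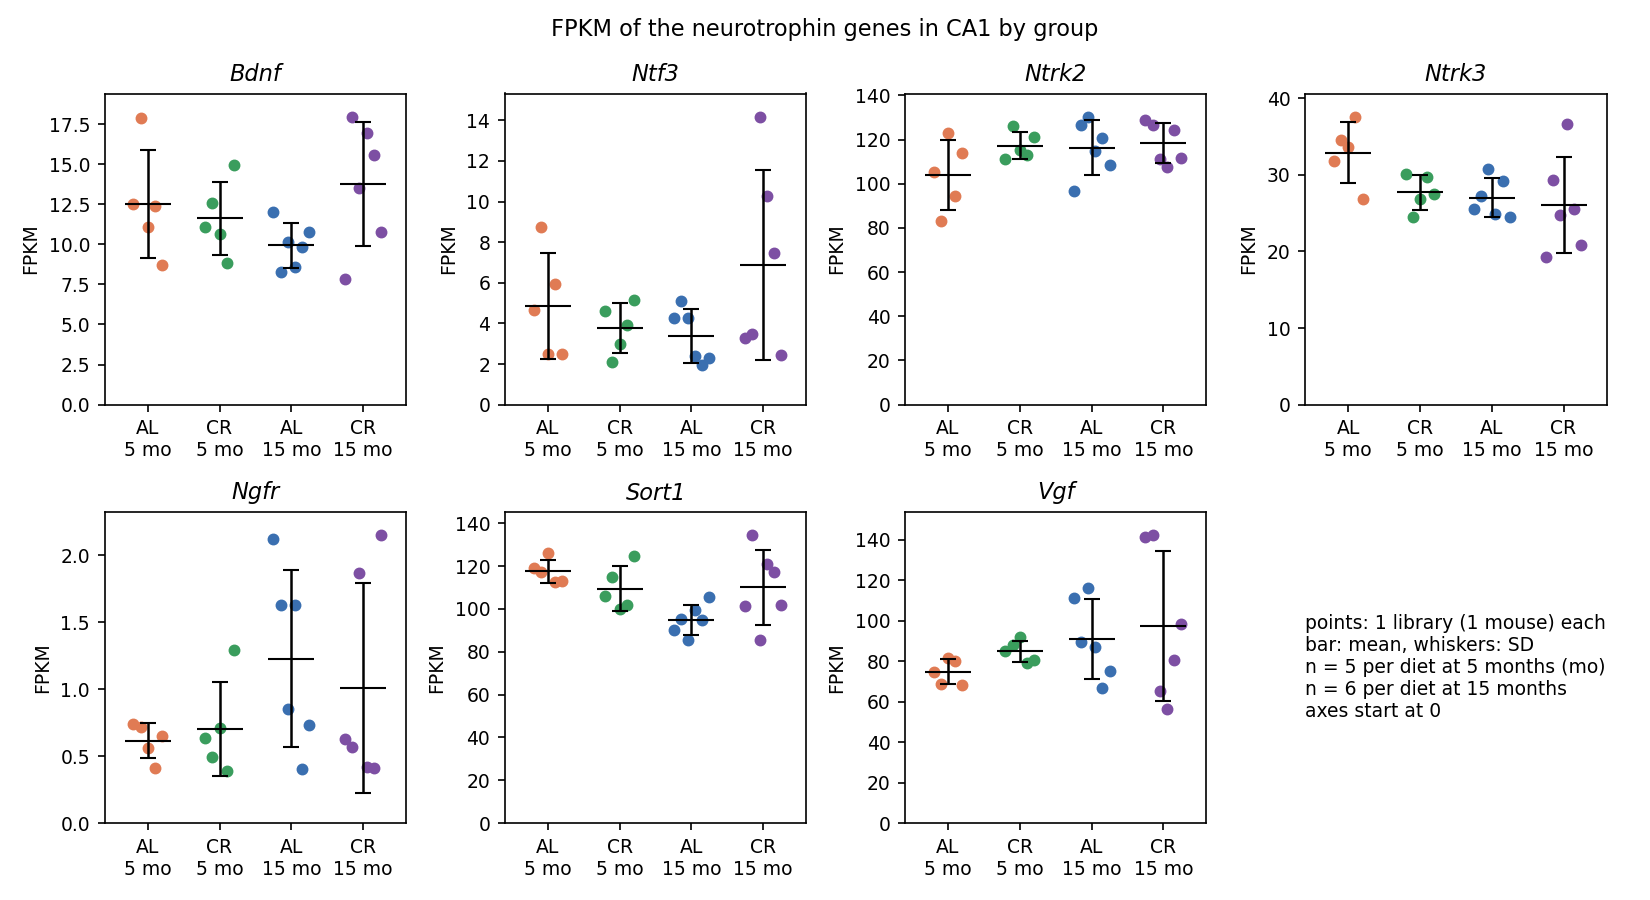
FPKM (vertical axes, from 0) of the 7 genes in each library by group, with the group mean as a bar and the SD as whiskers (n = 5 per diet at 5 months, n = 6 per diet at 15 months). The AL libraries at 15 months lie below every AL library at 5 months for Sort1, and for Ntf3 the CR libraries at 15 months spread more than the other groups, from 2.45 to 14.2 FPKM.

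Normal aging was addressed by comparing the AL mice of both ages. Sort1, the sortilin receptor that directs proneurotrophins and other cargo between the Golgi, endosomes and the cell surface, fell with age, and was the 1 gene of the 7 that passed the test. The Sort1 level was 119, 117, 126, 113 and 113 FPKM in AL mice at 5 months, and its lowest, median and highest values at 15 months were 85.3, 95.0 and 105 FPKM. The ranges did not overlap, and the group means were 118 ± 5.51 (SD, n = 5) and 95.0 ± 7.01 FPKM (SD, n = 6). The log2 fold change was -0.31 (SE 0.092), with an adjusted p of 0.0223 by limma with Benjamini-Hochberg adjustment over all tested genes, and a two-sided exact permutation p of 0.00433. Of all tested genes, 20.6% were called in this comparison, against 1 of 7 here, and the AL groups did not overlap for 14% of all tested genes, against 1 of 7.

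The Sort1 call was lost without 1 library and with some regional markers in the fit. Without AL replicate 2 at 5 months, which had the highest Sort1 level, the log2 fold change was -0.28 and the adjusted p by limma was 0.0619, whereas Sort1 stayed called when any of the other libraries was left out. Of the CA1 markers, 3 of 5 were called lower with age in AL mice, against 9.97% of all tested genes (list median log2 fold change -2.02). Of 6 neocortex and subiculum markers, 4 were called higher, against 10.7% (median 1.18). The remaining markers were not called and went both ways, with Wfs1 at 0.63 and Mpped1 at -0.16 in the CA1 list. In the neocortex and subiculum list, Fezf2 was at -0.32 and Tle4 at 0.11. With the difference between these lists as a covariate, the Sort1 log2 fold change was -0.26 (SE 0.15) and was not called (adjusted p by limma 0.430). The same covariate left 0 of all 16978 tested genes called with age in AL mice, against 3502 without it, so the loss was not particular to Sort1. The CA1 list score (mean log2 level) was 5.27 to 6.43 in AL mice at 5 months and 3.36 to 5.12 at 15 months. The neocortex and subiculum score was 2.22 to 2.53 and 2.88 to 3.87, again without overlap. The covariate was thus confounded with age, and this fit cannot tell them apart. With the dentate and CA3 lists minus the CA1 list as a covariate, Sort1 stayed called at -0.31 (SE 0.097, adjusted p by limma 0.0284). With the dentate list alone it was -0.30 (SE 0.11) and was not called (adjusted p by limma 0.0985). In CR mice, Sort1 had 106, 115, 99.8, 102 and 125 FPKM at 5 months and 85.3, 109 and 135 FPKM as lowest, median and highest at 15 months. The CR means of 110 ± 10.5 and 110 ± 17.5 FPKM gave a log2 fold change with age of -0.0019 (SE 0.092, adjusted p by limma 0.998). The age by diet interaction for Sort1 was 0.31 (SE 0.13) with an unadjusted p of 0.0281 by limma, which did not pass after adjustment over all genes (adjusted p 0.639), so a difference in the age effect between diets was not established.

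**Figure D2:**
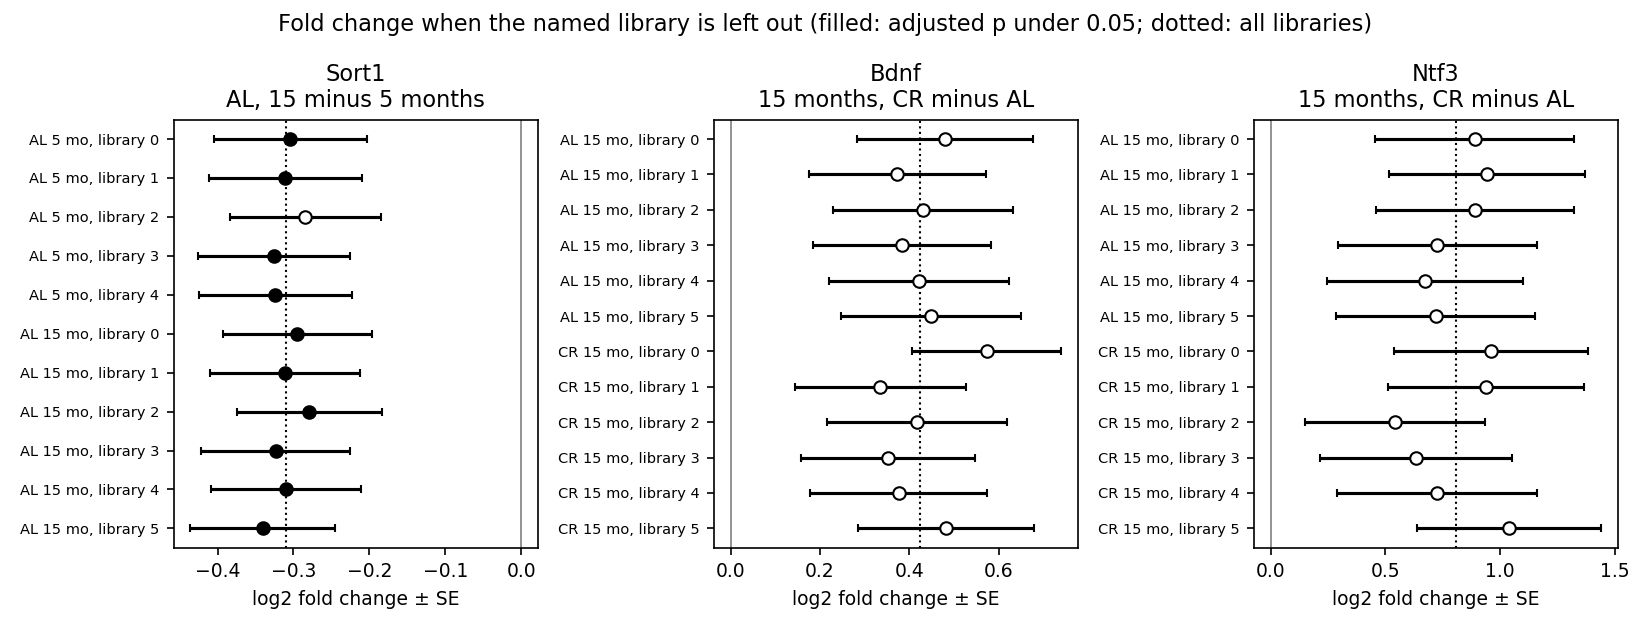
Log2 fold change (horizontal axis, with SE as whiskers) of Sort1 with age in AL mice and of Bdnf and Ntf3 by diet at 15 months, each refitted without the library named at the left; filled points had an adjusted p under 0.05. Sort1 was called in 10 of 11 fits, and Bdnf and Ntf3 lay above 0 in 12 of 12 fits without being called.

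The Trk receptor genes did not pass the test with age. Ntrk3, whose product binds neurotrophin-3, had 31.8, 34.5, 33.6, 37.6 and 26.9 FPKM in AL mice at 5 months and 24.5, 26.4 and 30.8 FPKM as lowest, median and highest at 15 months. The ranges overlapped through the lowest library at 5 months, and the log2 fold change was -0.28 (SE 0.13, adjusted p by limma 0.118, exact permutation p 0.0195). When the AL groups were fitted alone, Ntrk3 had the same fold change and an adjusted p of 0.0423 by limma, so its call rested on how the spread was estimated. Ntrk2, which encodes the TrkB receptor of Bdnf and is expressed by neurons and astrocytes, had 105, 83.3, 123, 94.3 and 114 FPKM in AL mice at 5 months and ranged from 96.5 to 130 FPKM with a median of 118 at 15 months. The groups overlapped, with a log2 fold change of 0.17 (SE 0.091, adjusted p by limma 0.198) that ranged from 0.091 without AL replicate 1 to 0.23 without AL replicate 2 at 5 months.

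The ratio of Ntrk2 to Ntrk3 in the same library describes the balance of both receptors. It averaged 3.23 ± 0.776 in AL mice at 5 months, 4.27 ± 0.580 in CR mice at 5 months, 4.31 ± 0.328 in AL mice at 15 months and 4.78 ± 1.24 in CR mice at 15 months (SD). The lowest ratio, 2.41, was in an AL mouse at 5 months, but that group reached 4.24 and so overlapped with each of the others. The ratio was not tested.

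Neither ligand passed the test with age in AL mice. Bdnf had 12.5, 17.9, 11.1, 12.4 and 8.70 FPKM at 5 months and 8.27, 9.97 and 12.04 FPKM as lowest, median and highest at 15 months, and the groups overlapped (log2 fold change -0.30, SE 0.20, adjusted p by limma 0.283). Ntf3 had 4.68, 8.74, 2.51, 5.93 and 2.49 FPKM at 5 months and 1.95, 3.31 and 5.11 FPKM as lowest, median and highest at 15 months. Its AL libraries included high and low values at both ages, and the log2 fold change of -0.44 was close to its SE of 0.43 (adjusted p by limma 0.486). Single libraries moved these values: without AL replicate 1 or replicate 4 at 5 months, the age value was -0.20 or -0.64 for Ntf3 and -0.16 or -0.42 for Bdnf.

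Ngfr and Vgf were more spread at 15 months. Ngfr, whose p75 product binds all neurotrophins and their precursors and which is high in cholinergic neurons of the basal forebrain, ranged from 0.41 to 0.74 FPKM in AL mice at 5 months. At 15 months its lowest, median and highest AL values were 0.40, 1.24 and 2.12 FPKM, so the highest AL libraries at 15 months exceeded every AL library at 5 months while the lowest did not (log2 fold change 0.74, SE 0.42, adjusted p by limma 0.218). Vgf ranged from 68.2 to 81.7 FPKM in AL mice at 5 months and from 66.7 to 116 FPKM with a median of 88.2 at 15 months (log2 fold change 0.26, SE 0.20, adjusted p by limma 0.370). The coefficient of variation of Vgf was 8.35% and 6.27% in AL and CR mice at 5 months and 21.5% and 38.2% at 15 months. For Ngfr it was 21.6% and 50.3% at 5 months and 53.9% and 77.9% at 15 months, and the spread was not tested.

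**Figure D3:**
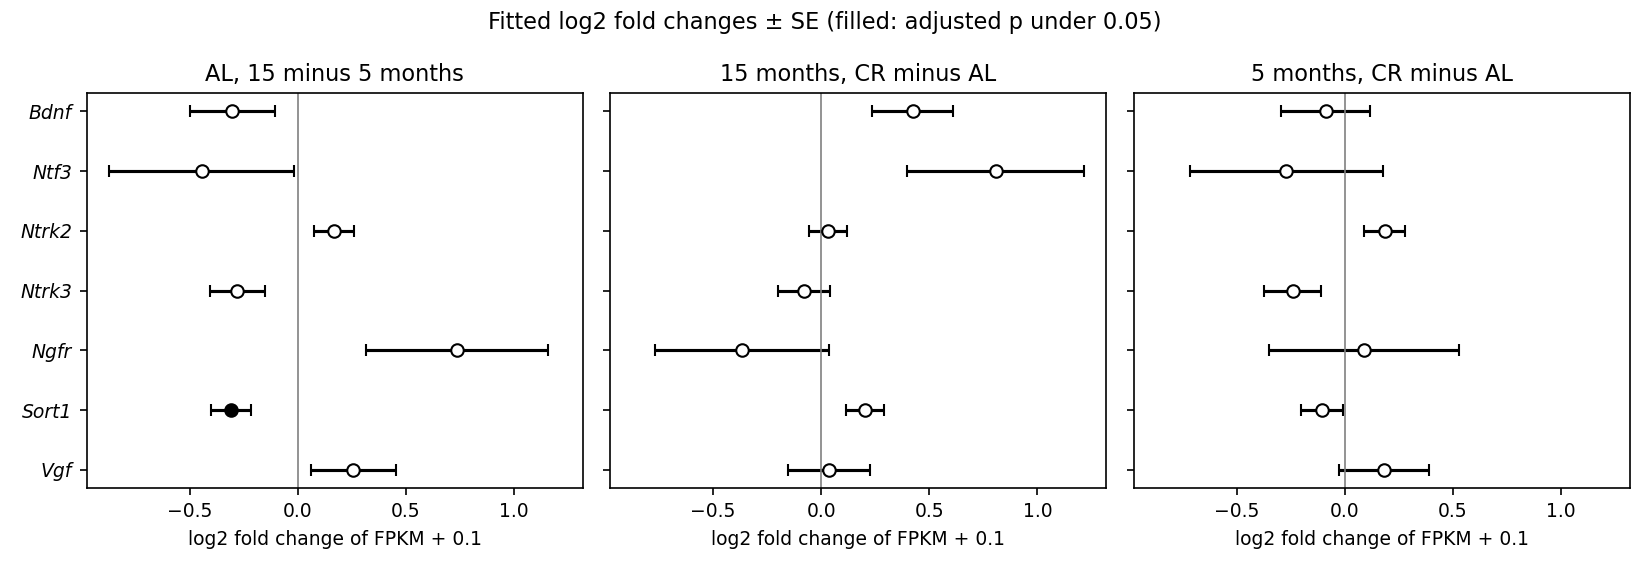
Fitted log2 fold changes of FPKM + 0.1 (horizontal axes) with their SE for the 7 genes in 3 comparisons, filled where the adjusted p was under 0.05. The filled point is Sort1 with age in AL mice at -0.31, and no point is filled for either diet comparison.

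The effect of CR in older mice was addressed by comparing CR with AL mice at 15 months, where 0.742% of all tested genes were called and 0 of the 7 genes was called by limma (2 of 7 at an unadjusted p under 0.05, Bdnf and Sort1, against 17.1% of all tested genes). The share over all genes varied with single libraries, since the 126 called genes became 15 without AL replicate 0, AL replicate 4 or CR replicate 3 and 732 without CR replicate 0, and separate fits called 0. Bdnf ranged from 7.84 to 17.97 FPKM with a median of 14.5 in CR mice, against the AL range of 8.27 to 12.04 FPKM. The CR libraries included the lowest Bdnf value and the 4 highest values of both groups, and the log2 fold change was 0.42 (SE 0.19, adjusted p by limma 0.257, exact permutation p 0.0649). Leaving out CR replicate 0, the lowest library, gave the largest of the refitted Bdnf values, 0.57 with an adjusted p of 0.0549 by limma. Ntf3 ranged from 2.45 to 14.2 FPKM with a median of 5.48 in CR mice, and 3 of 6 CR libraries lay above the AL maximum of 5.11 FPKM while the other 3 lay inside the AL range. The Ntf3 log2 fold change of 0.81 (SE 0.41, adjusted p by limma 0.317) ranged from 0.54 without CR replicate 2 to 1.04 without CR replicate 5.

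The 3 CR libraries at 15 months with the highest Ntf3 were also those with the highest summed dentate granule markers. CR replicate 2 had 14.2 FPKM of Ntf3 and a dentate sum of 107 FPKM, CR replicate 3 had 10.3 and 133 FPKM, and CR replicate 4 had 7.46 and 66.9 FPKM. CR replicates 0, 1 and 5 had 3.27, 3.50 and 2.45 FPKM of Ntf3 beside dentate sums of 13.6, 45.8 and 12.8 FPKM. Of the 6 dentate markers, 0 were called by limma between diets at 15 months, against 0.742% of all tested genes, with a list median log2 fold change of 1.14. At an unadjusted p under 0.05 there were 2 (Tdo2 and Lct), against 17.1%. With age in AL mice, 2 of 6 (Dsp and Lct) were called lower, against 9.97% of all tested genes, with a list median of -1.40. The other dentate markers were not called with age, with Tdo2 at -1.67, Prox1 at -1.13, C1ql2 at -0.61 and Trpc6 at 0.11.

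Across the 22 libraries, after each group's mean was subtracted, the log2 level of Ntf3 followed the dentate list score (the mean log2 level of its 6 genes) with Pearson's r of 0.853 (adjusted p 0.0021 by within-group permutation) and Spearman's rho of 0.892 (adjusted p 0.00105). Without the 2 libraries farthest from the median score, r was 0.840. This was 1 of 105 relations between the 7 genes and 15 marker lists, over which these p-values were adjusted, and 3 of the 105 had an adjusted p of r under 0.05. Within AL mice at 15 months r was 0.834 (n = 6, exact permutation p 0.0222) and rho 0.771 (exact permutation p 0.103), with r of 0.684 without the 2 extreme libraries. Within CR mice at 15 months r was 0.853 (n = 6, exact permutation p 0.0417) and rho 0.829 (exact permutation p 0.0583), with r of 0.707 without the 2 extreme libraries.

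With the dentate score as a covariate, a fit chosen after this relation was seen, the Ntf3 log2 fold change between diets at 15 months was 0.071 (SE 0.24, adjusted p by limma 0.949) in place of 0.81. The Ntf3 value with age in AL mice turned from -0.44 to 0.51 (SE 0.27, adjusted p by limma 0.246). Over all tested genes, the dentate covariate left 12 called between diets at 15 months, against 126 without it. At an unadjusted p under 0.05 by limma there were 1607, against 2902. Other covariates left more of the Ntf3 diet difference. With the dentate and CA3 lists minus the CA1 list as a covariate, the Ntf3 log2 fold change between diets was 0.79 (SE 0.31, adjusted p by limma 0.191), its age value in AL mice was -0.79 and the Bdnf diet value was 0.42, and with the region score the Ntf3 diet value was 0.59 (SE 0.46, adjusted p by limma 0.661). Bdnf followed the dentate list less closely, with r of 0.613 (adjusted p 0.177 by within-group permutation) and rho of 0.518 (adjusted p 0.289), and r was 0.407 without the 2 extreme libraries. With the dentate score as a covariate, the Bdnf log2 fold change between diets at 15 months was 0.18 (SE 0.17, adjusted p by limma 0.767). Within CR mice at 15 months r for Bdnf was 0.821 (n = 6, exact permutation p 0.0486) and rho 0.714 (exact permutation p 0.136), but r was -0.217 without the 2 extreme libraries, so that relation rested on those mice. Ntrk3 had r of 0.678 with the dentate list (adjusted p 0.177 by within-group permutation) and rho of 0.477 (adjusted p 0.359). Its age value in AL mice was -0.061 with the dentate covariate (SE 0.11, adjusted p by limma 0.776), in place of -0.28.

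**Figure D4:**
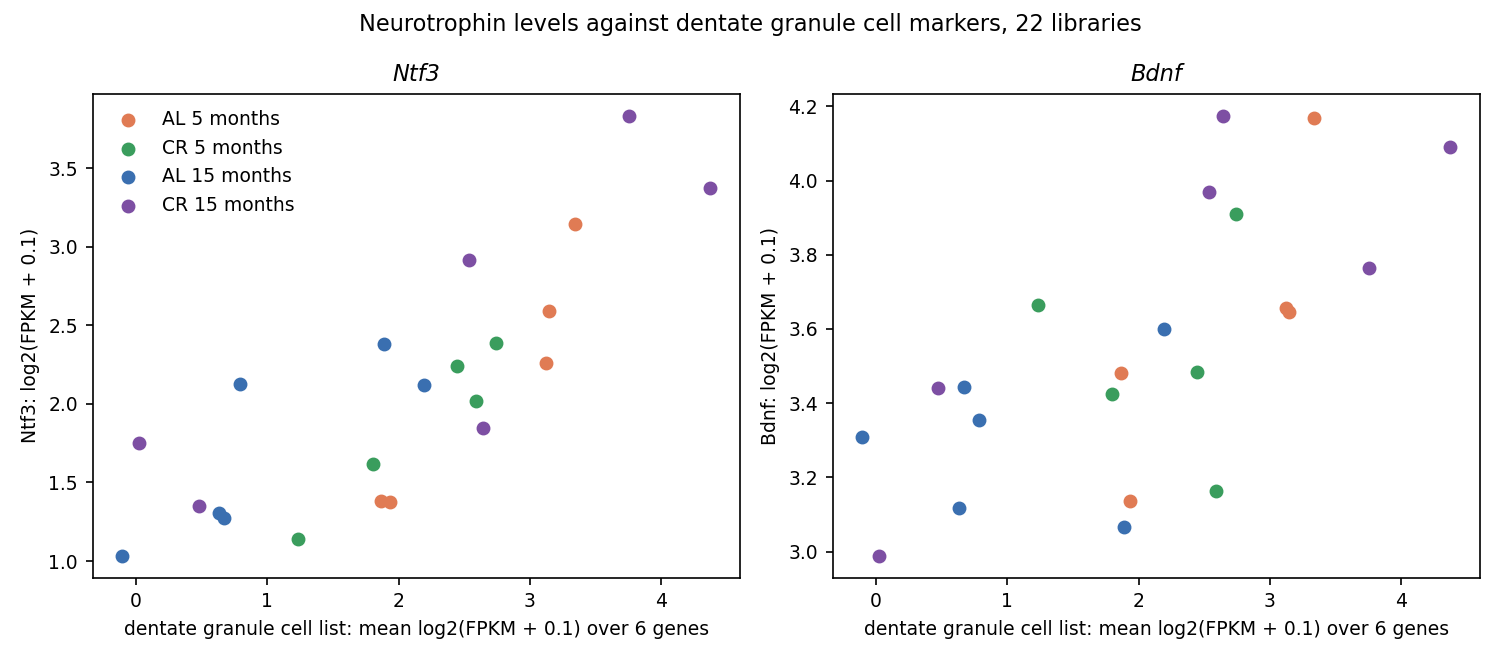
Log2(FPKM + 0.1) of Ntf3 (left) and Bdnf (right) against the dentate granule list score (horizontal axes, mean log2 level of 6 marker genes), 1 point per library coloured by group. Ntf3 is higher in libraries with a higher score (r = 0.812 over the plotted points), and Bdnf is more scattered (r = 0.673). After each group's mean was subtracted, which is not plotted, r was 0.853 for Ntf3 and 0.613 for Bdnf.

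The other relations past the threshold concerned Bdnf and Ngfr. Bdnf was inversely related to the leptomeninges list (Aldh1a2, Slc6a13, Slc22a6, Slc47a1, Col1a1 and Dcn), with r of -0.641 (adjusted p 0.0116 by within-group permutation), rho of -0.677 (adjusted p 0.0462) and r of -0.554 without the 2 extreme libraries. Leptomeninges markers had 0 calls by limma between diets at 15 months, against 0.742% of all tested genes, with a list median log2 fold change of -0.64. Their summed level ranged from 10.8 to 120 FPKM in AL and 8.87 to 96.2 FPKM in CR mice at that age. Their part in the Bdnf levels was not tested. Ngfr followed the thalamus list (Tcf7l2, Prkcd, Lef1 and Slc17a6) with r of 0.832 (adjusted p 0.00577 by within-group permutation), rho of 0.779 (adjusted p 0.0199) and r of 0.783 without the 2 extreme libraries. Summed thalamus markers ranged from 11.6 to 22.2 FPKM in AL mice at 5 months and from 13.6 to 39.7 FPKM in AL mice at 15 months, and their part in the Ngfr levels was not tested. Ntf3 was also inversely related to the neocortex and subiculum list, with r of -0.706 (adjusted p 0.0759 by within-group permutation). For a list of interneuron markers, the r of Ntf3 was -0.639 (adjusted p 0.159 by within-group permutation). Both fell short of the threshold.

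The other genes showed small differences between diets at 15 months. Ntrk2 ranged from 108 to 129 FPKM in CR mice around a median of 118, the AL median, with a log2 fold change of 0.030 (SE 0.087) whose sign turned with scaling (-0.013 after quantile normalization). Ntrk3 ranged from 19.2 to 36.6 FPKM in CR mice and included the lowest and the highest values of both diets at 15 months (log2 fold change -0.080, SE 0.12). Sort1 had a log2 fold change of 0.20 (SE 0.088, adjusted p by limma 0.250), and 5 of the 6 CR libraries exceeded the median of AL mice. Vgf in CR mice ranged from 56.3 to 142 FPKM, and 2 CR libraries reached 141 and 142 FPKM while the highest AL library had 116 FPKM (log2 fold change 0.037, SE 0.19, and -0.0029 after quantile normalization). Ngfr ranged from 0.41 to 2.15 FPKM in CR mice, with 2 libraries at 1.87 and 2.15 FPKM and the other 4 at 0.63 FPKM or less (log2 fold change -0.37, SE 0.40, adjusted p by limma 0.669).

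In younger mice, CR and AL were compared at 5 months. No gene of the matrix was called there by limma (0% of tested genes, with 4.65% at an unadjusted p under 0.05), and 0 of the 7 genes reached an unadjusted p under 0.05. Vgf had 84.9, 87.8, 91.8, 78.8 and 80.5 FPKM in CR mice and 74.8, 68.8, 81.7, 80.2 and 68.2 FPKM in AL mice. All 5 CR libraries were above the AL median, and the exact permutation p was 0.0397, but the log2 fold change of 0.18 (SE 0.21) had an adjusted p of 1 by limma. Ntrk3 had 30.1, 24.4, 26.9, 29.7 and 27.5 FPKM in CR mice, all below the AL median of 33.6 FPKM, with a log2 fold change of -0.24 (SE 0.13, adjusted p by limma 1, exact permutation p 0.0476). These were 2 of the 4 permutation p-values under 0.05 among 35 computed for the 7 genes and 5 pairs of groups, and they were not adjusted over the 35.

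Of the other genes at 5 months, Ntrk2 in CR mice ranged from 111 to 126 FPKM, a narrower range than the 83.3 to 123 FPKM of AL mice (log2 fold change 0.19, SE 0.096). Bdnf had 11.1, 12.6, 10.6, 8.87 and 14.9 FPKM in CR mice, within the AL range, and its log2 fold change was -0.088 (SE 0.21). Ntf3 had 4.62, 2.11, 2.97, 3.94 and 5.13 FPKM in CR mice, and its log2 fold change of -0.27 was smaller than its SE of 0.45. Ngfr differed by 0.090 (SE 0.44) on the log2 scale, and 1 CR library at 1.29 FPKM exceeded the rest.

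CR mice at 15 months were also set against both groups at 5 months, and these comparisons share libraries with those above. None of the 7 genes was called against CR mice at 5 months, where 3.36% of all tested genes were called (0 of 7 at an unadjusted p under 0.05 by limma, against 18%), or against AL mice at 5 months, where 3.12% were called (2 of 7 at an unadjusted p under 0.05, Ntrk2 and Ntrk3, against 19.3%). Ntrk3 had a log2 fold change of -0.36 (SE 0.13, adjusted p by limma 0.120, exact permutation p 0.0714) in the comparison of older CR with younger AL mice. Leaving out CR replicate 3, the highest Ntrk3 library of its group at 36.6 FPKM, gave -0.46 (adjusted p by limma 0.0176). Ntrk2 had a log2 fold change of 0.20 (SE 0.091, adjusted p by limma 0.241). For the age by diet interaction, 0% of all tested genes and 0 of the 7 were called by limma, and at an unadjusted p under 0.05 there were 7.66% of all tested genes and 1 of the 7, Sort1.

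The order of the group means differed among the genes. Bdnf and Ntf3 shared the order of CR mice at 15 months, AL at 5 months, CR at 5 months and AL at 15 months, from 13.8 ± 3.88 to 9.94 ± 1.40 FPKM for Bdnf and from 6.86 ± 4.67 to 3.38 ± 1.32 FPKM for Ntf3 (SD). For each of the 7 genes, every pair of neighbouring groups in its order overlapped in range. The nearest to a separation was Sort1 between younger CR and older AL mice, with 110 ± 10.5 and 95.0 ± 7.01 FPKM (exact permutation p 0.0152).

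The genes around the 7 were described from 8 lists with 117 genes, of which 113 passed the filter. With age in AL mice, 22 of 113 were called, 15 higher and 7 lower, or 19.5% against 20.6% of all tested genes, of which 10.7% were called higher and 9.97% lower (1809 and 1693 genes, which became 1441 and 2286 with libraries shifted to a common median and 1509 and 1845 after quantile normalization). The list median log2 fold changes ranged from -0.56 to 0.22 (0.022 over the 113 genes, against -0.0018 over all tested genes). Among the remaining ligands, Ntf5, which encodes neurotrophin-4, had 0.27 and 0.21 FPKM (log2 fold change -0.31, adjusted p by limma 0.450).

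Of 13 tested genes for sorting, release and cleavage of neurotrophin precursors, 2 rose and 2 fell with age in AL mice. This was 30.8% called, against 20.6% of all tested genes. Sorcs1, a sortilin relative, rose from 3.51 ± 0.680 to 7.36 ± 2.55 FPKM (log2 fold change 0.999, SE 0.29, adjusted p by limma 0.0182), with no overlap between ages. Pcsk1, a prohormone convertase of secretory granules, rose from 7.69 ± 1.44 to 15.6 ± 4.75 FPKM (log2 fold change 0.97, adjusted p by limma 0.0227). Sorl1, another sorting receptor of the sortilin family, fell from 42.3 ± 4.91 to 27.0 ± 3.08 FPKM (log2 fold change -0.65, adjusted p by limma 0.00726), with no overlap. Cadps2, a priming factor for dense core vesicles that promotes Bdnf release, fell from 38.3 ± 9.58 to 23.3 ± 7.95 FPKM (log2 fold change -0.76, adjusted p by limma 0.0242). Sort1 and Sorl1 were thus lower and Sorcs1 higher at 15 months than at 5 months in AL mice.

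Of 38 Trk adaptors and kinases, 8 rose and 2 fell with age in AL mice (26.3% called, against 20.6% of all tested genes). The ribosomal S6 kinases Rps6ka2 and Rps6ka3, which act downstream of ERK, rose from 12.8 ± 1.07 to 23.5 ± 4.09 FPKM (log2 fold change 0.86, adjusted p by limma 0.00029) and from 6.92 ± 1.29 to 11.2 ± 2.89 FPKM (0.67, adjusted p by limma 0.00993). Shc3, a neuronal adaptor of activated Trk receptors, rose from 15.0 ± 3.02 to 23.9 ± 5.36 FPKM (0.66, adjusted p by limma 0.0158), and the adaptor Sh2b2 rose from 1.86 ± 0.269 to 2.90 ± 0.262 FPKM without overlap (0.62, adjusted p by limma 0.0042). The kinase gene Pik3cb fell by 0.29 on the log2 scale (adjusted p by limma 0.0405). No p75 receptor partner was called with age of 8, and 2 of the 8 were at an unadjusted p under 0.05 by limma, against 35.2% of all tested genes.

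Of 14 regulators of Bdnf transcription, 3 rose and 1 fell with age in AL mice (28.6% called, against 20.6% of all tested genes). Bdnf itself was not called. Mef2c, an activity-regulated transcription factor that is also strong in neocortex, rose from 21.0 ± 5.66 to 79.5 ± 39.5 FPKM (log2 fold change 1.82, SE 0.28, adjusted p by limma 0.000415). Its level in CR mice at 15 months was 47.4 ± 15.3 FPKM, and the log2 fold change between diets of -0.67 was not called (adjusted p by limma 0.209). Crebbp, the CREB coactivator, rose by 0.37 on the log2 scale (adjusted p by limma 0.0493), and Usf1 fell by 0.34 (adjusted p by limma 0.021). Of 17 activity-induced genes, Inhba alone was called, falling by 0.96 on the log2 scale (adjusted p by limma 0.0387), and 7 of the 17 were at an unadjusted p under 0.05, against 35.2% of all tested genes.

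No gene of the granin and dense core vesicle list was called with age of 10 (2 at an unadjusted p under 0.05 by limma, against the same 35.2%). In the GDNF and CNTF families, separate neurotrophic systems, 2 of 11 were called with age in AL mice, both higher (18.2% called, against 20.6% of all tested genes). Gfra2, a neurturin receptor, rose from 9.85 ± 2.01 to 18.4 ± 6.19 FPKM (log2 fold change 0.84, adjusted p by limma 0.0134). Cntfr, the ciliary neurotrophic factor receptor, rose from 31.7 ± 2.49 to 42.0 ± 4.08 FPKM (0.40, adjusted p by limma 0.00906). With the difference between the neocortex and CA1 lists (the region score) as a covariate, 0 of the 113 genes were called with age in AL mice. That fit left 0 of all 16978 tested genes called, and the region score was confounded with age. With the dentate score, 6 of the 113 and 1330 of all tested genes were called. Between diets at 15 months, 0 of the 113 genes were called by limma, against 0.742% of all tested genes. At an unadjusted p under 0.05 there were 15, against 17.1%. At 5 months 0 were called, against 0%, and 2 were at an unadjusted p under 0.05, against 4.65%. Against CR mice at 5 months, CR mice at 15 months had 3 called genes (2.65%, against 3.36% of all tested genes). Against AL mice at 5 months there were 4 (3.54%, against 3.12%), and Mef2c and Rps6ka2 rose in both comparisons.

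**Figure D5:**
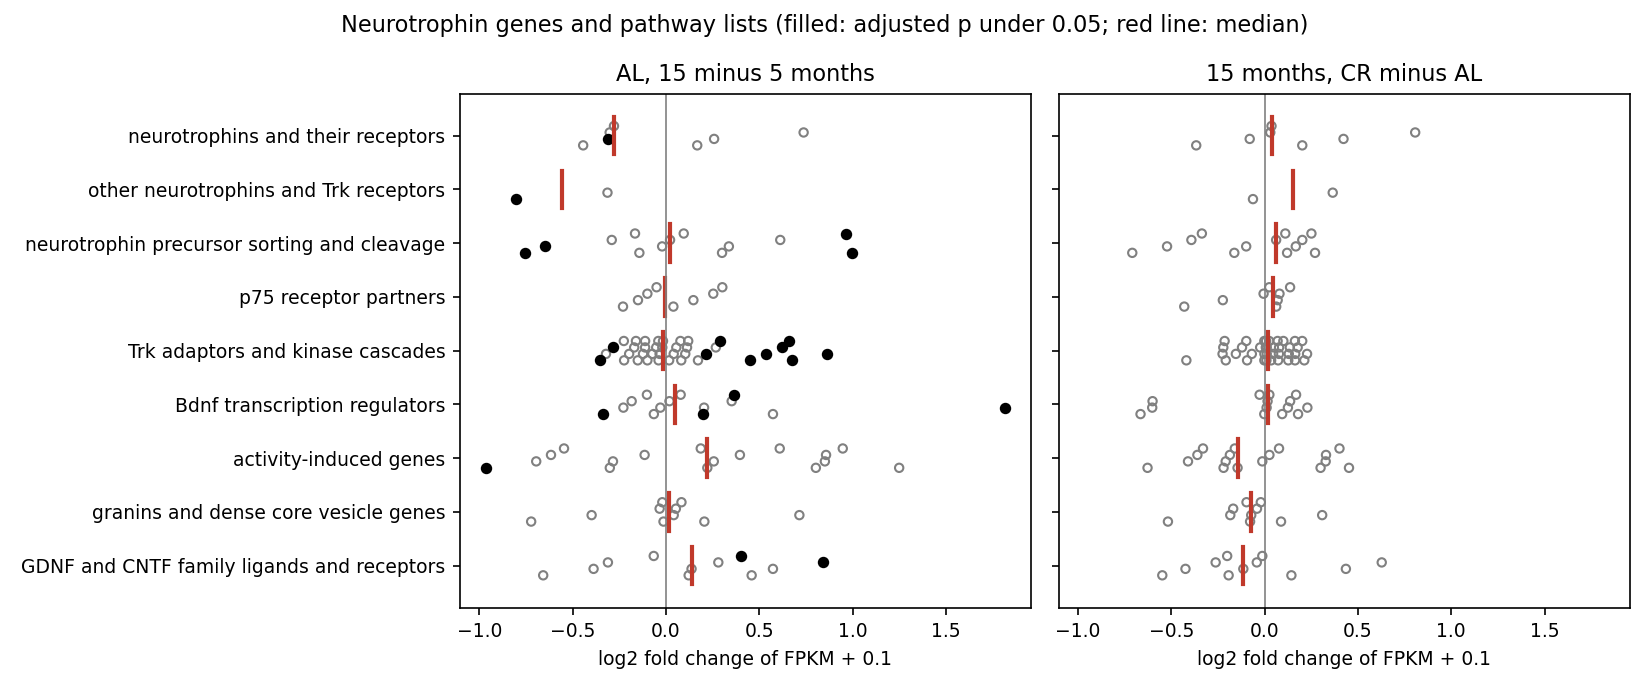
Log2 fold change (horizontal axes) of each tested gene of the 7-gene set and of the 8 pathway lists with age in AL mice (left) and between diets at 15 months (right), filled where the adjusted p was under 0.05, with the list median in red. Filled points lie on both sides of 0 with age, 15 higher and 7 lower among the pathway genes, and there are none between diets.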

How the data were processed

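CA1 mRNA of 22 mice was measured in 4 groups taken from the sample labels. The deposited FPKM were estimated by the authors with Cufflinks, with corrections for fragment bias and multi-mapped reads, after TopHat alignment to mm10 and removal of duplicate reads by Picard. The annotation release is not given in the sources used here. No value column was left out (0).

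From the FPKM, log2(FPKM + 0.1) was computed for genes with a mean of at least 0.1 and fitted for all groups together with limma 3.58.1 in R 4.3.3 (eBayes with trend, two-sided, Benjamini-Hochberg adjusted p under 0.05 called). Fold changes are on this scale, which understates those of low genes. Single genes were also compared by exact two-sided permutation of group means, and marker relations by 100000 within-group permutations (scipy 1.17.1 under Python 3.11.15, with pandas 2.3.3, numpy 2.4.6 and, for the plots, matplotlib 3.10.9). The pipeline was tested on simulated data.

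The genes, lists and tests were chosen with earlier results of these data known. Named are the 7 genes, Ntf5, called pathway genes (at most 4 per list and direction, by size, with a mean of at least 1 FPKM), reported marker genes, and the 3 genes whose within-group deviations correlate best with each of the 7. Some genes that this rule names are not reported here. Alternatives were a pseudocount of 1 or 0.01, no filter or a minimum mean of 1 FPKM, common median or quantile scaling, eBayes without trend, separate fits, a replicate block, regional score covariates (the dentate one chosen after seeing the data) and each library left out. No read depth could be derived, so errors are the spread between mice.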

Additional observations from a re-analysis of the deposited data

How the results depend on the processing

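Over 42 log2 fold changes (7 genes, 6 contrasts) and 1415 refitted values, 1373 kept their direction and side of the threshold, 36 turned direction, and the values that turned had been at most 0.44 in size and not called. Many refits could not turn a value. Leaving out a library outside the compared groups, or changing only the filter or the estimate of spread, kept the fold change by construction. Most values were also not called in any fit, so the 1373 do not measure stability. With age in AL mice, 1 of the 7 genes was called, against 0 after quantile normalization (Sort1 adjusted p by limma 0.0839), 0 with the region score covariate, 0 with the dentate granule score covariate (Sort1 adjusted p by limma 0.0985) and 2 with separate fits, and the 22 pathway calls became 0 with the region score and 6 with the dentate score. With the dentate and CA3 score covariate, Sort1 stayed called in this contrast (adjusted p by limma 0.0284). Over all tested genes, the 3502 calls of this contrast became 3354 after quantile normalization, 0 with the region score, 1330 with the dentate score and 4313 with separate fits. The region score turned the age value in AL mice of Ntf3 to 0.10 and of Ntrk3 to 0.038, and the age value in CR mice of Sort1 to 0.029 and of Ntrk3 to 0.061. The dentate score turned the AL age values of Bdnf and Ntf3 to 0.010 and 0.51, their diet values at 5 months to 0.0088 and 0.026, and the interactions of Ntrk3 and Vgf to -0.075 and 0.090. Quantile normalization turned the diet values at 15 months of Ntrk2 and Vgf to -0.013 and -0.0029 and the CR age value of Sort1 to 0.036, and the dentate and CA3 score turned the value of Ntf3 in older CR against younger AL mice to -0.0066. The region score was confounded with age in AL mice, and the cause of these shifts was not tested.

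With 1 library left out, the genes called with age in AL mice numbered 0 to 1 and those in older CR against younger AL mice 0 to 1. Pathway calls ranged from 12 to 25 with age in AL mice, with 12 without AL replicate 1 and 13 without AL replicate 2 at 5 months, and from 0 to 2 between diets at 15 months, with 2 without CR replicate 0 and 1 without CR replicate 5. Over all genes the corresponding calls were 2585 and 2383 with age, against 3502, and 732 and 492 between diets, against 126. Diet values at 15 months ranged from -0.022 to 0.065 for Ntrk2, -0.18 to 0.00058 for Ntrk3 and -0.091 to 0.18 for Vgf, diet values at 5 months from -0.21 to 0.050 for Bdnf and -0.13 to 0.25 for Ngfr, and age values in CR mice from -0.013 to 0.039 for Ntrk2, -0.063 to 0.069 for Sort1 and -0.016 to 0.25 for Vgf. The library numbers share no stated animal or batch, and over 31 pairs with the same number the correlation of deviations ranged from -0.139 to 0.163. With the replicate block, Sort1 with age in AL mice was -0.31 (adjusted p by limma 0.0225) and the number of the 7 genes called was 1. Ngfr had no value at a minimum mean of 1 FPKM, and the interaction had no separate fit.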

Other observations

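The genes whose deviations from their group means were most like those of each of the 7 genes are given as a description over 22 libraries, chosen as the 3 highest of 13833 genes with a mean of at least 1 FPKM. Ntf3 was most like BC017612, Lhfpl2 and Bambi, with Pearson's r of 0.917, 0.910 and 0.901. Bambi encodes a pseudoreceptor of the TGF-beta family. Sort1 was most like Kcnq3, a subunit of the M-type potassium channel, Rasgrp1, a Ras activator, and Prickle2, with r from 0.878 to 0.879. Bdnf was most like Anxa11, Camk2b, a subunit of the calcium and calmodulin dependent kinase of synapses, and Setd8, with r of 0.879, 0.804 and 0.804.

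Ntrk2 was most like Shc3, an adaptor that binds activated Trk receptors, with r of 0.813, followed by Me3 and Frmpd3 (0.785 and 0.778). Ntrk3 was most like Heatr6, Btbd9 and Bmp1, with r from 0.853 to 0.873. Vgf was most like Dos, Phlda1 and Hcn3, a hyperpolarization-activated channel, with r of 0.878, 0.842 and 0.814. Ngfr was most like Tmem255b, Ctsf and Cox7a1, with r of 0.883, 0.873 and 0.857, at levels of Ngfr that averaged 0.910 FPKM. Among the 7 genes themselves, Bdnf and Ntrk3 had r of 0.574, Ntf3 and Ntrk3 0.530, and Bdnf and Ntf3 0.469. Other pairs were inversely related, with r of -0.473 for Ntf3 and Ntrk2, -0.420 for Ntrk3 and Ngfr and -0.416 for Bdnf and Ntrk2. These correlations share libraries and the regional markers that vary among them.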
